A study of Homo sapiens with 9 samples.

Results

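The HOXB cluster is a row of homeobox genes on human chromosome 17, and its members HOXB1 to HOXB9 and HOXB13 were followed here in the order in which they lie. Each was taken by its gene symbol as the array annotation gives it, with 1 probe set a gene, the one with the highest mean over the 9 arrays where there was more than 1. All 10 HOXB genes were measured, each by a single probe set, among 14884 genes with a named probe set. The cells were HCT116, an established human colorectal carcinoma line of epithelial shape. The 5 shH2A.X arrays held RNA of HCT116 cells infected with a lentiviral short hairpin RNA against H2A.X, a variant of histone H2A that is phosphorylated at DNA breaks, and the 4 shCTRL arrays held RNA of HCT116 cells infected with a scrambled hairpin. Both groups carried a hairpin vector with a puromycin marker and grew for 72 h in DMEM with 10% fetal bovine serum. Each sample gave 100 ng of total RNA to an Affymetrix Human Gene 2.0 ST array. The model is limited by resting on 1 knockdown construct. The study's methods speak of stable clones from puromycin selection without tying them to the arrays, and the study calls the numbered samples independent replicates without saying whether they came from separate infections or cultures. The p-values below measure the spread between these samples, which may in part be technical.

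HOX genes encode homeodomain transcription factors that give cells their position along the body axis. They lie in 4 clusters, HOXA to HOXD, and genes at the same place in different clusters are paralogues, numbered alike. Along a cluster, low-numbered genes are switched on first and furthest to the head, and high-numbered genes later and further to the tail, an order known as colinearity. Retinoic acid opens the low-numbered end, Polycomb complexes keep clusters silent, Trithorax and MLL complexes keep them active, and CTCF with cohesin sets boundaries in them. In the adult colon, part of the HOXB genes stay on in the epithelium, with HOXB13 a gene of the distal gut and the prostate.

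The start of HOXB1 is shown because it is the only one of the 10 HOXB genes that matched the RefSeq promoter sequences used here. HOXB2, HOXB3, HOXB4, HOXB5, HOXB6, HOXB7, HOXB8, HOXB9 and HOXB13 are named only. The window runs from 250 bases before the RefSeq start site to 50 after it, at chr17:48530962-48531261 of GRCh38.p14, minus strand, and is written 5′ to 3′ with TGATGGAT in capitals, the letters of the HOX and PBX site known from the autoregulatory element of mouse Hoxb1. Those letters were looked for after the sequence had been read.
HOXB1 start: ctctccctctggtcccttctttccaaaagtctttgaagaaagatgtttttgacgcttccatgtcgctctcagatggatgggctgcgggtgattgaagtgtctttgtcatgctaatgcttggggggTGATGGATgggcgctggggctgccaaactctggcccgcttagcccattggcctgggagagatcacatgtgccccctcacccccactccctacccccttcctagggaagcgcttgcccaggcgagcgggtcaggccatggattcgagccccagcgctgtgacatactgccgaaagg
TGATGGAT was found 1 time, with its first base at -125 from the start site, and 0.595% of 35116 promoter windows of the same length held it on either strand. The window had 11 CG pairs, against a median of 14 over all windows, and a GC content of 58.0%, against a median of 58.7%. None of 5 other motifs was found in it on either strand. The E-box letters CACCTG, bound by Slug and ZEB1, were held by 20.6% of windows. A TATA box, spelled TATAAA, was held by 11.5%. The letters TTTATG of a CDX site were held by 10.6%. The HOX and PBX site TGATTNAT was held by 2.82%. The retinoic acid receptor site known as a direct repeat, with 5 bases between its repeats, was held by 0.0057%. A match or its absence describes these letters in this window only.

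A microRNA of the family that lies inside HOX clusters is shown for its place between HOXB9 and HOXB13. MIR196A1 in the HOXB cluster and MIR196A2 in the HOXC cluster give the same mature miR-196a, and MIR196B in the HOXA cluster gives miR-196b. They are shown from RefSeq (GRCh38.p14) with the seed, bases 2 to 8, in capitals, at chr17:48632532-48632553 on the minus strand for MIR196A1, chr12:53991762-53991783 on the plus strand for MIR196A2 and chr7:27169528-27169549 on the minus strand for MIR196B.
hsa-miR-196a-5p: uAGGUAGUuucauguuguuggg
hsa-miR-196b-5p: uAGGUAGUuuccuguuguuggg
The seed AGGUAGU was the same in both, and 1 base differed between the 22-base sequences, A12C, with positions counted from the 5′ end and the base of miR-196a first. HOXB8 is a known target of miR-196.

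The deposited values were even across arrays by the measures they allow. They had been processed before deposit, so even medians say little about the quality of the arrays. The median over all 53617 probe sets lay between 4.54 and 4.577 on the log2 scale in the 9 arrays, and no 2 arrays held identical values. Over the genes with a named probe set, 1 probe set a gene, pairs of arrays had a correlation of 0.9851 to 0.986 across the groups. Inside a group it was 0.9938 to 0.9953. The gene that the hairpin targets has no named probe set in the annotation used here and was not analysed. Over all genes, 1813 were higher and 1591 lower in shH2A.X cells at an adjusted p under 0.05 (limma, Benjamini-Hochberg), which is 22.9% of those tested.

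Of 14 intestinal epithelial markers, 11 were measured, and their summed linear level was 5390 to 5920 in shH2A.X arrays, against 5530 to 5770 in shCTRL arrays. Among them KRT19 rose by 0.64 (SE 0.05) and KRT20 by 1.00 (SE 0.12), EPCAM fell by 0.67 (SE 0.05), and CEACAM5 lay below the array median on all arrays. Fibroblast markers, 3 of 10 measured, summed to 46.5 to 60.1 in shH2A.X arrays, against 53.9 to 61.9 in shCTRL arrays, and 2 of the 3 lay below the array median throughout. Endothelial markers, 5 of 7 measured, summed to 121 to 133 in shH2A.X arrays, against 107 to 127 in shCTRL arrays, and 3 of the 5 lay below the median throughout. The leukocyte list, 4 of 10 measured, summed to 325 to 369 in shH2A.X arrays, against 155 to 183 in shCTRL arrays, where LYZ, the secreted lysozyme, rose by 2.67 (SE 0.12) and CD68, a lysosomal protein, by 0.90 (SE 0.07), all past limma's threshold. LYZ lay below the array median on all 4 shCTRL arrays. Its second probe set, dimmer at 3.75 ± 0.21 in shH2A.X cells and 2.87 ± 0.11 in shCTRL cells, rose by 0.88 (SE 0.11). CD14 lay below the median on every array, NKG7 differed by -0.12 (SE 0.12), and the defining leukocyte genes PTPRC and CD3E have no named probe set here. These levels moved beside the HOXB genes, and their part in the HOXB differences was not tested. In RNA from bulk cultures, fewer cells that express a gene and less RNA per cell cannot be told apart.

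Seen along the cluster, HOXB2 to HOXB9 were higher in shH2A.X cells and the genes at the ends, HOXB1 and HOXB13, were not separated between the groups. The difference grew from HOXB1 up to HOXB5 and HOXB6, was smaller at HOXB7, was large again at HOXB8 and HOXB9, and was near 0 at HOXB13. These genes were singled out with this contrast known, so their values are a description and carry no test. All values below are log2 expression values of single probe sets, each set only against itself, with means ± SD over 5 shH2A.X and 4 shCTRL arrays.

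HOXB1, which gives the fourth segment of the hindbrain its identity, read 4.20, 3.57, 4.01, 4.07 and 3.61 in shH2A.X arrays, against 3.62, 3.96, 3.84 and 3.66 in shCTRL arrays. The groups overlapped, and HOXB1 lay below the median of its own array on all 9 arrays. The means were 3.89 ± 0.29 in shH2A.X cells and 3.77 ± 0.16 in shCTRL cells, a difference of 0.12 (SE 0.14, 95% interval -0.17 to 0.42).

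HOXB2, a hindbrain gene that acts downstream of HOXB1, read 5.71, 5.98, 6.01, 6.01 and 6.03 in shH2A.X arrays, against 5.39, 5.56, 5.43 and 5.64 in shCTRL arrays. The lowest shH2A.X array lay 0.06 above the highest shCTRL array. The means were 5.95 ± 0.13 in shH2A.X cells and 5.50 ± 0.12 in shCTRL cells, a difference of 0.44 (SE 0.08, 1.36-fold). HOXB3, whose span in RefSeq also covers HOXB4, read 6.97, 7.01, 6.63, 6.69 and 6.84 in shH2A.X arrays, against 6.17, 5.80, 6.13 and 6.04 in shCTRL arrays. The groups were 0.45 apart at the closest pair, and the difference of 0.79 (SE 0.10) was 1.73-fold. HOXB3 shares bases with HOXB4, HOXB-AS1, HOXB-AS2, HOXBLINC and MIR10A in the annotation, by position alone and whatever the strand. Whether the HOXB3 probe set reads their RNA was not tested.

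HOXB4, known for its power to expand blood stem cells, read 6.13, 5.68, 5.35, 6.0 and 6.07 in shH2A.X arrays, against 5.10, 4.40, 4.88 and 5.28 in shCTRL arrays. It was the most scattered of the 10, with a pooled SD of 0.35, against a median of 0.13 over all genes, and the groups were only 0.06 apart. Its shCTRL values were low, and on shCTRL replicate 2 it lay below the median of its own array. The means were 5.85 ± 0.33 in shH2A.X cells and 4.92 ± 0.38 in shCTRL cells, a difference of 0.93 (SE 0.19, 1.90-fold).

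HOXB5, a factor of neural crest and gut innervation, read 8.31, 8.40, 8.65, 8.34 and 8.39 in shH2A.X arrays, against 6.57, 6.78, 6.58 and 6.74 in shCTRL arrays. The groups stood 1.53 apart, the widest gap of the 10. The means were 8.42 ± 0.13 in shH2A.X cells and 6.67 ± 0.11 in shCTRL cells, a difference of 1.75 (SE 0.08, 3.36-fold). HOXB6 read 8.96, 9.28, 9.32, 9.22 and 9.27 in shH2A.X arrays, against 7.02, 7.46, 7.67 and 7.63 in shCTRL arrays. The first replicate of both groups was the low one, and the groups were still 1.29 apart. The means were 9.21 ± 0.15 in shH2A.X cells and 7.45 ± 0.30 in shCTRL cells, a difference of 1.76 (SE 0.13, 3.40-fold), the largest of the 10. HOXB5 and HOXB6 both share bases with HOXB-AS3 in the annotation, and HOXB2 with HOXB-AS1.

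HOXB7, often raised in breast and other carcinomas, broke the run. It read 7.15, 7.12, 7.45, 7.22 and 7.10 in shH2A.X arrays, against 6.48, 6.80, 6.76 and 6.74 in shCTRL arrays. The groups were 0.29 apart, with means of 7.21 ± 0.14 in shH2A.X cells and 6.70 ± 0.15 in shCTRL cells and a difference of 0.51 (SE 0.09, 1.42-fold), although its neighbours on both sides differed by more than 1 log2 unit.

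HOXB8, which blocks the differentiation of myeloid progenitors when forced on in mouse cells, read 7.86, 7.74, 7.66, 7.67 and 7.54 in shH2A.X arrays, against 6.24, 6.14, 6.20 and 6.32 in shCTRL arrays. The arrays of the groups were 1.22 apart, and the difference of 1.47 (SE 0.07) was 2.76-fold. HOXB9, a gene of the thoracic skeleton and the mammary gland in mice, read 9.97, 10.02, 10.05, 10.01 and 9.86 in shH2A.X arrays, against 8.35, 8.41, 8.40 and 8.38 in shCTRL arrays. It was the least scattered of the 10 with a pooled SD of 0.06, the groups were 1.45 apart, and the difference of 1.60 (SE 0.06) was 3.02-fold.

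HOXB13, a partner of the androgen receptor in the prostate, read 5.66, 5.52, 5.79, 6.01 and 5.59 in shH2A.X arrays, against 5.66, 5.47, 5.68 and 6.01 in shCTRL arrays. The ranges lay on top of each other, with means of 5.71 ± 0.19 in shH2A.X cells and 5.71 ± 0.22 in shCTRL cells and a difference of 0.01 (SE 0.12, 95% interval -0.26 to 0.27).

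**Figure D1:**
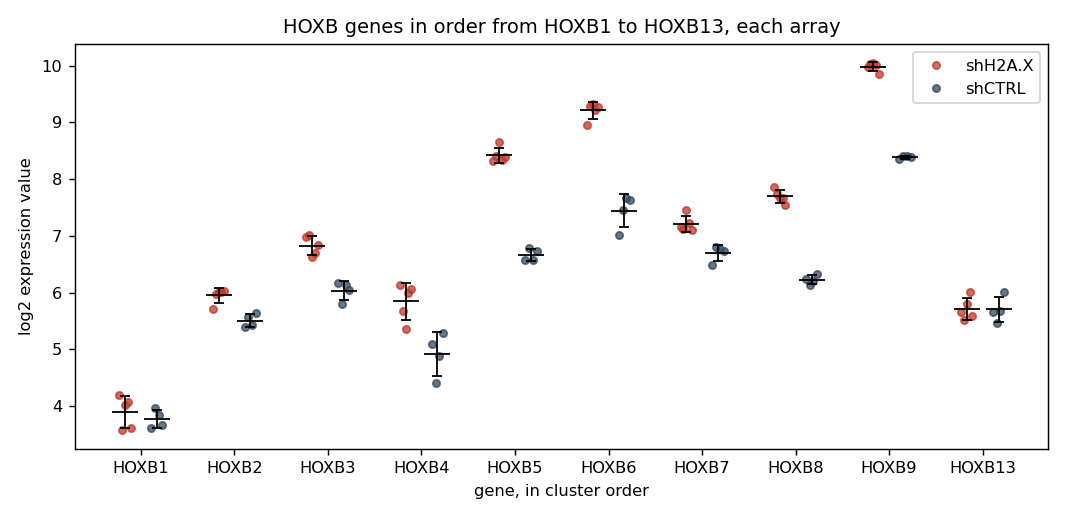
Log2 expression value of each HOXB gene on each array, in cluster order from HOXB1 to HOXB13, with shH2A.X arrays left of shCTRL arrays and bars for the mean and SD of each group. HOXB2 to HOXB9 have all shH2A.X points above all shCTRL points, while HOXB1 and HOXB13 overlap.

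By the count, 8 of 10 HOXB genes were higher at limma's threshold, where 12.2% of all genes were, and in the same 8 genes the arrays did not overlap, as in 12.1% of all genes. A fold of at least 1.5 was reached by 6 of them, against 2.36% of all genes, and a fold of at least 2 by 4, against 0.793%. None was lower, against 10.7% of all genes, and none was lower by limma or by the methods' test at an unadjusted p under 0.05 either. The median difference over the 10 genes was 0.86, against 0.00 over all genes. Since this contrast was in view when the genes were chosen, nothing is read from these counts.

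Set among all genes, 25 genes had a larger rise than HOXB6, 26 a larger rise than HOXB5, 36 than HOXB9 and 45 than HOXB8. HOXB4 stood below 138 genes, HOXB3 below 185, HOXB7 below 490 and HOXB2 below 649. Array by array, the median of HOXB2 to HOXB9, each less its shCTRL mean, was 1.36, 1.24, 1.09, 1.26 and 1.24 in the shH2A.X arrays. It was -0.07, 0.02, 0.00 and 0.08 in the shCTRL arrays. HOXB1 and HOXB13 were left out and the shCTRL mean was the zero point, so a positive shH2A.X median was set beforehand. These medians show only how even the arrays were.

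The distances between genes, taken from RefSeq gene spans in GRCh38.p14, show how narrow the stretch is. HOXB2 to HOXB9 lie within 83.7 kb, and the stretch between HOXB9 and HOXB13, which holds MIR196A1 and PRAC1, is 98.4 kb. HOXB7 lies 2.25 kb from HOXB6 and 1.33 kb from HOXB8, the shortest gap between neighbours that do not overlap, and the difference was 1.25 smaller at HOXB7 than at HOXB6 and 0.96 larger again at HOXB8. From HOXB8 to HOXB9, 5.86 kb apart, it changed by 0.13, and from HOXB9 to HOXB13 it dropped by 1.59. On the way up, the steps were 0.32 to HOXB2, 0.35 to HOXB3, 0.14 to HOXB4, 0.82 to HOXB5 and 0.01 to HOXB6.

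These steps were also read within each array, as the value of 1 gene less that of the next. A shift common to an array cancels there, and a fixed brightness offset of a probe set drops out of the contrast between groups. A difference in response between probe sets would not drop out, and was not tested. HOXB6 less HOXB7 was 1.81 to 2.18 in shH2A.X arrays, against 0.54 to 0.91 in shCTRL arrays. HOXB7 less HOXB8 was -0.71 to -0.21 in shH2A.X arrays, against 0.24 to 0.66 in shCTRL arrays. HOXB9 less HOXB13 was 4.00 to 4.50 in shH2A.X arrays, against 2.37 to 2.94 in shCTRL arrays. In these 3 of the 9 neighbouring pairs the groups did not overlap, so the dip at HOXB7 and the break after HOXB9 showed in every array. In the other 6 pairs, all steps of the climb from HOXB1 to HOXB6 and the step from HOXB8 to HOXB9, the groups overlapped. Put in order of the size of the difference (HOXB6, HOXB5, HOXB9, HOXB8, HOXB4, HOXB3, HOXB7, HOXB2, HOXB1, HOXB13), no gene was separated from the next by this measure, since all 9 neighbouring pairs overlapped.

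**Figure D2:**
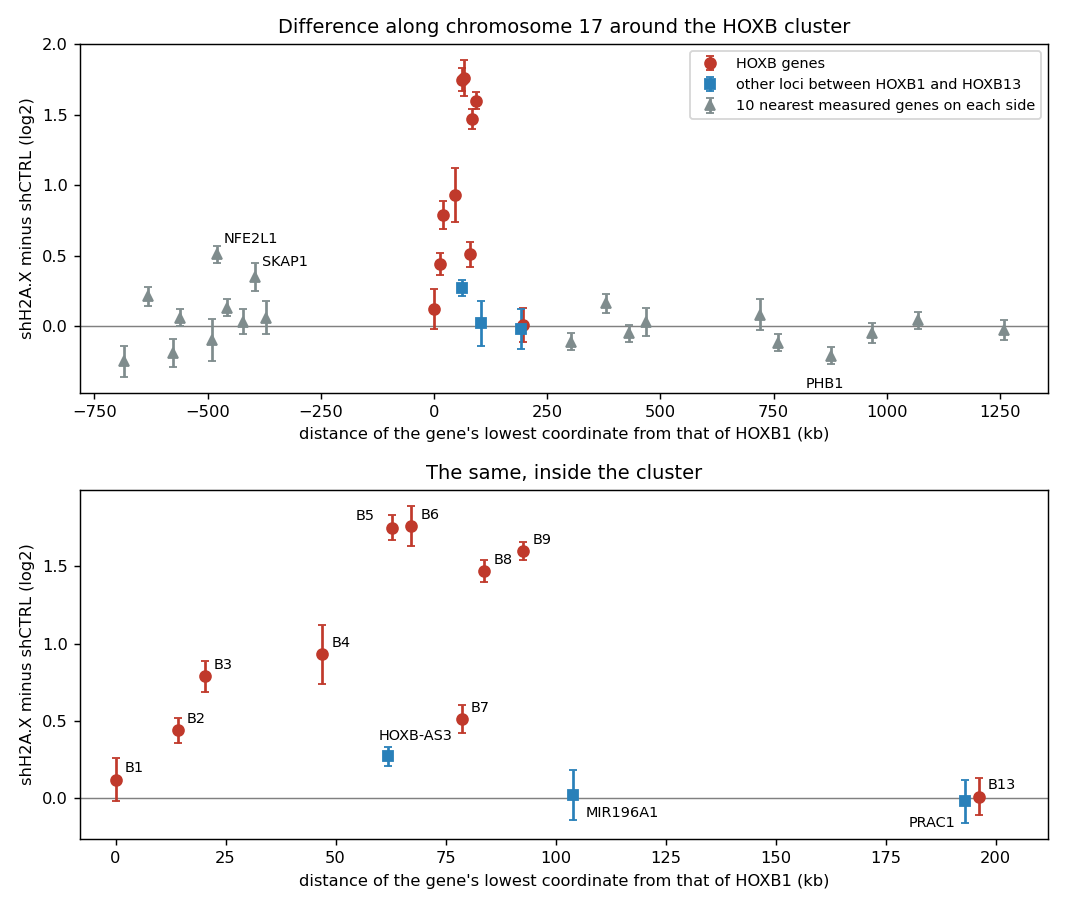
Difference between shH2A.X and shCTRL in log2 units (points, with bars for 1 SE) against distance in kb from HOXB1, for HOXB genes (circles), other loci between HOXB1 and HOXB13 (squares) and the 10 nearest measured genes on each side (triangles). The upper panel spans the neighbourhood and the lower panel the cluster, where the difference climbs to 1.76 at HOXB6, dips to 0.51 at HOXB7 and is 0.01 at HOXB13.

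Other transcripts lie inside the cluster, and 3 of the 9 listed were measured. HOXB-AS3, an antisense RNA that overlaps HOXB5 and HOXB6, read 5.34, 5.50, 5.33, 5.42 and 5.28 in shH2A.X arrays, against 5.12, 5.05, 5.12 and 5.12 in shCTRL arrays. It rose by 0.27 (SE 0.06, limma adjusted p = 0.00788), a smaller difference than those of HOXB5 and HOXB6, and its probe set was at low values in both groups. MIR196A1, the microRNA gene shown above, averaged 4.99 ± 0.25 in shH2A.X cells and 4.97 ± 0.34 in shCTRL cells, a difference of 0.02 (SE 0.16, adjusted p = 0.949). PRAC1, a gene of prostate and distal colon beside HOXB13, lay below the array median on all arrays and differed by -0.02 (SE 0.14, adjusted p = 0.949). HOXB-AS1, HOXB-AS2, HOXB-AS4, HOXB-AS5, MIR10A and PRAC2 have no named probe set in the annotation used here. The other members of the microRNA family did not pass the test, with MIR196B at 7.77 ± 0.28 in shH2A.X cells and 7.94 ± 0.22 in shCTRL cells (adjusted p = 0.473) and MIR196A2 below the array median on all arrays. Whether the probe sets of these microRNA genes read the mature microRNA or a longer RNA was not tested.

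Outside the cluster, the 10 nearest measured genes on each side had a median difference of 0.03, with 2 higher, 1 lower and 17 not past the test (15% past it, against 22.9% of all genes). NFE2L1, a transcription factor of proteasome genes that lies 467 kb beyond HOXB1, averaged 10.05 ± 0.07 in shH2A.X cells and 9.54 ± 0.06 in shCTRL cells and rose by 0.51 (SE 0.06, adjusted p = 0.000102). SKAP1, an adaptor of T cell receptor signalling 83.5 kb beyond HOXB1, averaged 6.59 ± 0.20 in shH2A.X cells and 6.24 ± 0.09 in shCTRL cells and rose by 0.35 (SE 0.10, adjusted p = 0.0234), a call kept in 11 of 18 alternative fits. PHB1, a mitochondrial prohibitin 675 kb beyond HOXB13, fell by 0.21 (SE 0.06, adjusted p = 0.0249), kept in 12 of 18. On the HOXB13 side the closest measured gene, CALCOCO2 at 102 kb, differed by -0.11 (SE 0.06, adjusted p = 0.216).

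In the other HOX clusters few genes passed the test. Of 31 measured genes in HOXA, HOXC and HOXD, out of 49 listed, 1 rose and 2 fell, leaving 28 that missed the threshold. The 31 had a median difference of -0.03 and 9.68% past the threshold, against 22.9% of all genes. HOX homeobox genes made up 17 of the 31, with 1 rise and 1 fall, and the rest were other loci in the clusters. Of the 31, 10 lay below the array median on all arrays. In HOXA, 7 of 19 were measured, with HOXA2 the only HOX homeobox gene among them, and 2 fell. HOXA11-AS missed the threshold at -0.32 (SE 0.11, adjusted p = 0.0526) and passed it in 4 of 18 alternative fits. HOXA2, the HOXB2 paralogue that patterns the second pharyngeal arch, averaged 4.46 ± 0.13 in shH2A.X cells and 4.92 ± 0.25 in shCTRL cells and fell by 0.46 (SE 0.11, adjusted p = 0.0111). HOXA10-AS, an antisense RNA at HOXA10, averaged 7.45 ± 0.12 in shH2A.X cells and 7.91 ± 0.25 in shCTRL cells and fell by 0.46 (SE 0.11, adjusted p = 0.0098). In HOXC, 11 of 16 were measured, and HOXC4, the HOXB4 paralogue, rose by 0.36 (SE 0.09, adjusted p = 0.0128), with means of 5.93 ± 0.16 in shH2A.X cells and 5.57 ± 0.12 in shCTRL cells. In HOXD, 13 of 14 were measured and none passed limma's threshold in either direction, nor an unadjusted p under 0.05 by limma or by the methods' test.

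Paralogue by paralogue, the 11 measured genes with the same number as a HOXB gene differed by -0.46 to 0.36. Beside HOXB8 at 1.47 stood HOXC8 at 0.26 (SE 0.12, adjusted p = 0.153) and HOXD8 at -0.29 (SE 0.15, adjusted p = 0.219). Beside HOXB9 at 1.60 stood HOXC9 at -0.24 (SE 0.09, adjusted p = 0.0858) and HOXD9 at -0.09 (SE 0.07, adjusted p = 0.444). Beside HOXB3 at 0.79, HOXD3 differed by 0.13 (SE 0.08, adjusted p = 0.276), and beside HOXB4 at 0.93, HOXD4 differed by -0.07 (SE 0.13, adjusted p = 0.767). No paralogue of HOXB5, HOXB6 or HOXB7 was measured: HOXA5, HOXA6, HOXA7, HOXC5 and HOXC6 have no named probe set here. At the ends of the cluster no measured paralogue passed the test, with HOXD1 at -0.03 (SE 0.08) beside HOXB1, and HOXC13 at -0.07 (SE 0.10) and HOXD13 at 0.07 (SE 0.06) beside HOXB13.

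**Figure D3:**
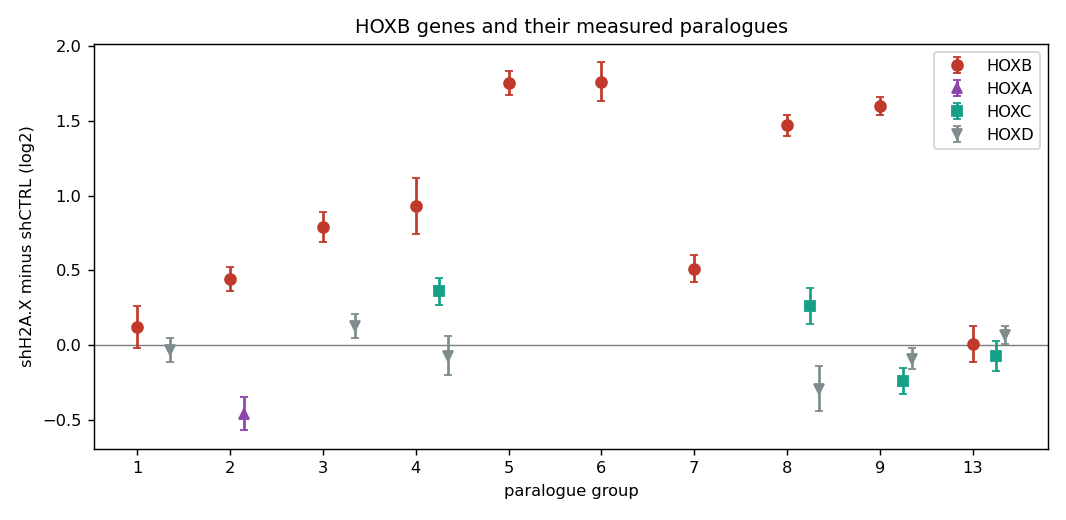
Difference between shH2A.X and shCTRL in log2 units (points, with bars for 1 SE) for each HOXB gene and its measured paralogues in HOXA, HOXC and HOXD, by paralogue group number. The HOXB genes of groups 2 to 9 lie between 0.44 and 1.76, and the paralogues between -0.46 and 0.36.

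HOX proteins bind DNA with partners of the PBX and MEIS families. A list of 15 cofactors held these families and also TGIF1, PBXIP1, HMGB1, HIPK2 and the pseudogene MEIS3P1. Of the list 12 were measured, of which 2 rose and 1 fell, leaving 9 that missed the threshold (25% past it, against 22.9% of all genes, median 0.07). All that passed were MEIS relatives, so 25% understates the share in the PBX and MEIS families alone. MEIS2, a homeodomain partner of HOX and PBX proteins, read 8.10, 7.95, 7.92, 7.91 and 8.01 in shH2A.X arrays, against 6.43, 6.25, 6.33 and 6.58 in shCTRL arrays. The groups were 1.33 apart, and MEIS2 rose by 1.58 (SE 0.08, adjusted p = 6.78e-08), 2.99-fold, a size in the range of HOXB5 to HOXB9 other than HOXB7. Its second probe set, dimmer at 4.40 ± 0.28 in shH2A.X cells and 3.55 ± 0.24 in shCTRL cells, gave 0.85 (SE 0.16, adjusted p = 0.00623 over all probe sets). PKNOX1, another MEIS-related partner, rose by 0.37 (SE 0.10, adjusted p = 0.0186), and MEIS3 fell by 0.27 (SE 0.09, adjusted p = 0.0457), calls kept in 14 and 7 of 18 alternative fits. MEIS1 differed by -0.19 (SE 0.10, adjusted p = 0.207).

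Regulators of HOX genes were taken list by list, ordered from those that open a cluster to those that hold it. Of 20 retinoic acid genes only 5 were measured, the receptors not among them, and 3 rose while none fell (60% past limma's threshold, against 22.9% of all genes, median 0.33; 1 was lower at an unadjusted p under 0.05 by limma and by the methods' test). STRA6, the receptor through which cells take up retinol, read 6.13, 5.95, 5.92, 6.03 and 6.08 in shH2A.X arrays, against 4.83, 5.10, 5.08 and 5.12 in shCTRL arrays, and rose by 0.99 (SE 0.08, adjusted p = 2.92e-06). CRABP2, which carries retinoic acid to its nuclear receptors, averaged 9.13 ± 0.10 in shH2A.X cells and 8.77 ± 0.12 in shCTRL cells and rose by 0.37 (SE 0.08, adjusted p = 0.00435). DHRS3, which turns retinal back into retinol, averaged 7.90 ± 0.11 in shH2A.X cells and 7.57 ± 0.06 in shCTRL cells and rose by 0.33 (SE 0.07, adjusted p = 0.0047). None of the 6 CDX and ParaHox genes passed limma's threshold, nor an unadjusted p under 0.05 by limma or by the methods' test, and CDX2, the intestinal homeobox factor, averaged 6.19 ± 0.13 in shH2A.X cells and 6.22 ± 0.13 in shCTRL cells.

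Of 25 Polycomb genes measured, out of 33, 8 rose and 4 fell, leaving 13 that missed the threshold (48% past it, against 22.9% of all genes, median 0.09). Those with the largest rise were CBX6, a chromobox subunit, by 0.69 (SE 0.08, adjusted p = 0.000104), PHF19 by 0.61 (SE 0.08, adjusted p = 0.000169) and PHF1 by 0.56 (SE 0.07, adjusted p = 0.000107), both Polycomb-like partners of the H3K27 methyltransferase complex, and ASXL1, a cofactor of the H2A deubiquitinase, by 0.31 (SE 0.07, adjusted p = 0.00896). Other probe sets of CBX6 gave 0.07 (SE 0.20), and of PHF1 0.62 (SE 0.06) and 0.15 (SE 0.09), so these genes were not alike across probe sets. The methyltransferase EZH2 rose by 0.23 (SE 0.05, adjusted p = 0.00954) and its partner SUZ12 by 0.23 (SE 0.06, adjusted p = 0.0103), while the alternative methyltransferase EZH1 averaged 7.76 ± 0.12 in shH2A.X cells and 8.2 ± 0.13 in shCTRL cells and fell by 0.44 (SE 0.08, adjusted p = 0.00235). SCMH1, PHC1 and PCGF3, which belong to complexes of the PRC1 type as CBX6 does, fell by 0.28 (SE 0.06), 0.27 (SE 0.08) and 0.21 (SE 0.06), with adjusted p = 0.00343, 0.0409 and 0.0324. The call was kept in 18 of 18 alternative fits for SCMH1, in 8 for PHC1 and in 9 for PCGF3, and both PHC1 and PCGF3 missed the threshold without shCTRL replicate 1, 3 or 4 or shH2A.X replicate 2 or 4. PHC3 and PCGF5, of the same families as PHC1 and PCGF3, rose by 0.3 (SE 0.06) and 0.28 (SE 0.06), with limma adjusted p = 0.00422 and 0.00679. Those 2 calls were kept in 18 and 17 of 18 alternative fits. The list thus moved in both directions.

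Of 13 Trithorax and MLL genes measured, out of 23, 3 rose and 2 fell (38.5% past the test, against 22.9% of all genes, median 0.08). PSIP1, which tethers MLL to chromatin, rose by 0.31 (SE 0.06, adjusted p = 0.00183), SETD1A by 0.22 (SE 0.06, adjusted p = 0.0209) and KMT2D by 0.25 (SE 0.08, adjusted p = 0.045), the last 2 being H3K4 methyltransferases. The call was kept in 14 of 18 alternative fits for SETD1A and in 6 of 18 for KMT2D, which missed the threshold without any 1 of the 4 shCTRL arrays or of shH2A.X replicates 2 to 5. MEN1, the menin subunit of MLL complexes, fell by 0.32 (SE 0.07, adjusted p = 0.00537) and KDM6B, an H3K27 demethylase, by 0.29 (SE 0.08, adjusted p = 0.0243), kept in 14 of 18 for KDM6B. Of 12 chromatin loop and early HOX factors measured, out of 14, 3 rose and none fell (25% past limma's threshold, against 22.9% of all genes, median 0.07; 1 was lower at an unadjusted p under 0.05 by limma and by the methods' test). STAG1, a cohesin subunit, averaged 8.42 ± 0.10 in shH2A.X cells and 7.81 ± 0.04 in shCTRL cells and rose by 0.61 (SE 0.06, adjusted p = 3.48e-05). CTCF, the boundary protein, averaged 10.55 ± 0.07 in shH2A.X cells and 10.24 ± 0.04 in shCTRL cells and rose by 0.31 (SE 0.06, adjusted p = 0.002). KAT6B, a histone acetyltransferase, averaged 8.42 ± 0.05 in shH2A.X cells and 8.09 ± 0.01 in shCTRL cells and rose by 0.33 (SE 0.05, adjusted p = 0.000803). Whether any of these genes has a part in the HOXB differences was not tested.

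**Figure D4:**
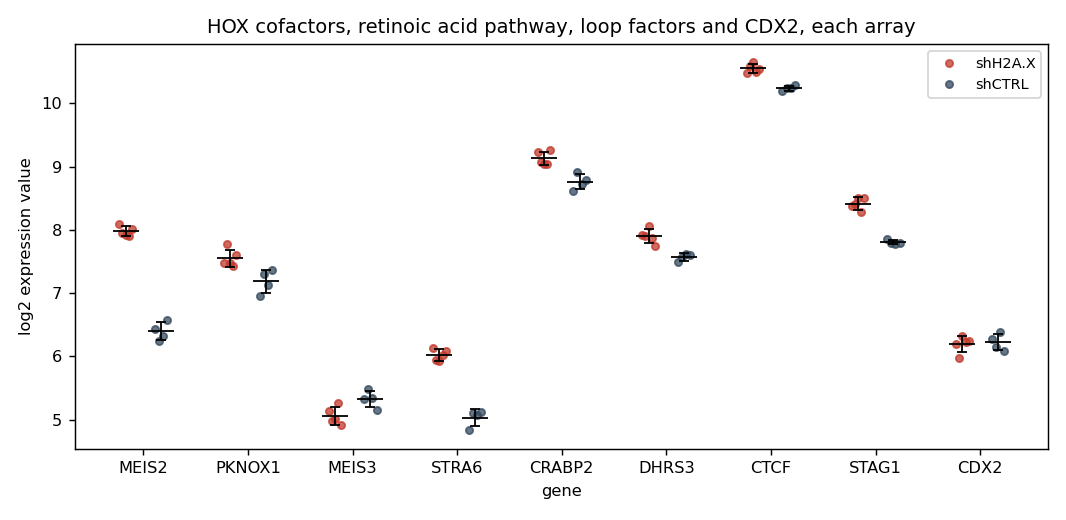
Log2 expression value of 9 HOX cofactors and regulators on each array, with shH2A.X arrays left of shCTRL arrays and bars for the mean and SD of each group. MEIS2 and STRA6 stand furthest apart, and MEIS3 is lower in shH2A.X cells by 0.27. The groups overlap in both MEIS3 and CDX2.

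Some genes elsewhere in the genome ran closer to HOXB6 over the 9 arrays than most of the cluster did. The measure was the root mean square difference between the values of 2 genes, each less its own mean, and the genes nearest to HOXB6, chosen by that measure alone, were HEG1 at 0.156, TNS3 at 0.177, HOXB5 at 0.180 and KRT80 at 0.187. HEG1, a membrane protein of cell junctions, averaged 9.17 ± 0.06 in shH2A.X cells and 7.27 ± 0.16 in shCTRL cells. TNS3, a tensin of focal adhesions, averaged 8.03 ± 0.05 in shH2A.X cells and 6.35 ± 0.17 in shCTRL cells. KRT80, a keratin, averaged 6.71 ± 0.11 in shH2A.X cells and 5.05 ± 0.24 in shCTRL cells. Of the HOXB genes, HOXB9 was at 0.209 and HOXB8 at 0.281, whereas HOXB7 was at 0.642 and HOXB13 at 0.905, at rank 7322 of all genes. The 9 arrays share 1 contrast, so likeness here mostly reads the size of the difference between the groups.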

How the data were processed

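Total RNA of HCT116 cells was measured in 5 shH2A.X and 4 shCTRL samples on Affymetrix Human Gene 2.0 ST arrays. Per the labels and methods, the authors processed the scans with Affymetrix Expression Console and Partek 6.6, and deposited log2 expression values per probe set. The sources used here state neither the background correction nor the normalization, nor any filter or array batch. No detection calls accompany the values, so the limit of detection is unknown, and the number of arrays limits the precision. The methods give 5 arrays for each group, and the 4 shCTRL arrays that the labels name were used.

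Of 53617 probe sets, 16098 carried 1 gene symbol, 0 several and 37519 none, in the platform annotation, giving 14884 genes, of which 779 had more than 1 probe set. Genes were compared with limma 3.58.1 (R 4.3.3; lmFit and eBayes, no covariate) on the deposited log2 values, and p-values were adjusted by Benjamini-Hochberg over all of them with a threshold of 0.05. The fitting code was tested on simulated data. The methods name no test for the arrays, and the two-sided equal-variance test they use elsewhere, called the methods' test, was run on the same values. It called 4761 genes unadjusted and 3213 after Benjamini-Hochberg. Gene order and distances came from RefSeq (GRCh38.p14), with no coordinates in the deposited table, and promoters and microRNAs from the matching RefSeq tables.

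The HOXB genes and all lists were chosen with earlier results of these data known. Genes named are all HOXB genes, up to 4 genes with the largest rise and 4 with the largest fall past the threshold in each list, all members of a count of 5 or fewer, the called paralogues and neighbours, and the 3 genes outside the cluster nearest to the HOXB gene with the largest difference. EZH2, SUZ12, PHC3, PCGF5, MEIS1, CALCOCO2, CDX2, PRAC1 and TGIF1 were named outside that rule, after their values had been seen. HOXA11-AS, PBXIP1, HMGB1, HIPK2 and MEIS3P1 were too. So were the microRNA genes, the markers and paralogues not past the threshold. Alternatives were quantile normalization, median centring, a filter on probe sets below a mean of 4.557, the methods' test, array weights, a robust prior with a mean-variance trend, the mean of probe sets, all probe sets as the unit, the replicate number as a block, and each array left out.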

Additional observations from a re-analysis of the deposited data

Results flagged for a closer look

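Arrays that stood apart from the rest of their group were looked for in 88 genes, as 176 groups of 4 or 5 arrays, by the gap to the nearest array over the range of the group. Chance sets 1 in 20 groups apart, and 11 of 176 were, so no single one is more than a value to look at.

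In the HOXB cluster, HOXB2 read 5.71 on shH2A.X replicate 1, below the other shH2A.X arrays at 5.98 to 6.03, and HOXB6 read 8.96 on the same array, below the others at 9.22 to 9.32. HOXB5 read 8.65 on shH2A.X replicate 3, above the others at 8.31 to 8.40. HOXB-AS3 read 5.05 on shCTRL replicate 2, below the other shCTRL arrays at 5.12. PRAC1 read 4.24 on shCTRL replicate 4, above the others at 3.78 to 3.82.

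Outside it, HOXC4 read 5.39 on shCTRL replicate 1, below the others at 5.62 to 5.64, and STRA6 read 4.83 on the same array, below the others at 5.08 to 5.12. PHF19 read 7.07 on shCTRL replicate 4, below the others at 7.30 to 7.32. HEG1 read 9.28 on shH2A.X replicate 3, above the others at 9.13 to 9.16, and TGIF1, a TALE homeobox repressor, read 6.96 there, below the others at 7.04 to 7.05. KDM6B read 6.53 on shH2A.X replicate 4, below the others at 6.80 to 6.91. The cause of these values was not tested.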

How the results depend on the processing

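The differences of HOXB2 to HOXB9 kept their direction in the 16 alternatives run on them, with ranges of 0.40 to 0.50 for HOXB2, 0.71 to 0.84 for HOXB3, 0.76 to 1.05 for HOXB4, 1.69 to 1.79 for HOXB5, 1.62 to 1.84 for HOXB6, 0.44 to 0.54 for HOXB7, 1.42 to 1.5 for HOXB8 and 1.58 to 1.63 for HOXB9. HOXB1 ranged over 0.05 to 0.20 and was dropped by the filter on dim probe sets, and HOXB13 over -0.07 to 0.11, so its sign is not settled. Counts over lists moved more. Loci of the other HOX clusters that rose were 1, and 2 with dim probe sets left out, and 1 to 2 with 1 array left out (2 without shCTRL replicate 1 or 3). Those that fell moved too, with HOXA11-AS also past the threshold in 4 of 18 alternatives and HOXC9 in 1 of 18. Cofactors past the threshold were 3, and 1 with the methods' test and 1 with all probe sets as the unit, and 1 to 3 with 1 array left out (1 without shCTRL replicate 3). Neighbours were 3, and 6 with a mean-variance trend and robust prior, 1 with all probe sets as the unit, and 1 to 4 with 1 array left out (1 without shCTRL replicate 1 or 2). Trithorax and MLL genes were 5, and 2 with all probe sets as the unit, and 2 to 5 with 1 array left out (2 without shCTRL replicate 1, 3 without shCTRL replicate 4 or shH2A.X replicate 2). Loop and early factors were 3, and 6 with the methods' test and 6 with the trend and robust prior. The cause of these shifts was not tested.

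Replicate numbers are shared by the groups but did not pair the arrays: same-numbered deviations correlated at -0.004, 0.024, -0.068 and -0.086, and 0 of the 4 numbers had its own partner as the best one. With the replicate number as a block, 1 locus of the other HOX clusters fell in place of 2 (HOXA10-AS, limma adjusted p = 0.0602). Polycomb genes that passed were 7 in place of 12, and Trithorax and MLL genes 2 in place of 5. The block leaves fewer residual degrees of freedom, and shH2A.X replicate 5 has no partner in it.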
